A study of Mus musculus with 6 samples.

Results

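Transforming growth factor beta (TGF-beta) was described here through 9 genes in liver RNA-seq, namely the ligands Tgfb1, Tgfb2 and Tgfb3, the receptors Tgfbr1 and Tgfbr2, the latent TGF-beta binding proteins Ltbp1 and Ltbp2, and the target genes Smad7 and Tgfbi. The genes were taken by symbol from the 55491 genes of the deposited table, each symbol matched 1 row, and all 9 passed the filter that left 13943 genes for testing. The 3 Chrna2fl/fl;AlbCre mice carried floxed alleles of Chrna2, a subunit of nicotinic acetylcholine receptors, and Cre under the albumin promoter, which is active in hepatocytes. The study describes the deletion as restricted to hepatocytes. The 3 Chrna2fl/fl littermates carried the floxed alleles without Cre. Mice of both genotypes were 7 to 10 weeks old when they were put on a high-fat diet (HFD, 60% of calories as fat) that lasted 4 weeks, and both received carbon tetrachloride (CCl4), which injures hepatocytes, by intraperitoneal injection at 0.5 μl/g of body weight, with 2 injections a week over its last 2 weeks. Each library came from the liver of 1 mouse, and the labels do not say whether the letters a, b and c pair mice across genotypes.

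TGF-beta ligands are secreted as latent dimers that stay bound to their own propeptide, and latent binding proteins tether that complex to the extracellular matrix until integrins, proteases or thrombospondin release the active ligand. Active ligand brings together the type II receptor, which is constitutively active as a kinase, and the type I receptor, which then phosphorylates SMAD2 and SMAD3, and these enter the nucleus with SMAD4. In injured liver this pathway is best known for driving hepatic stellate cells to become matrix-producing myofibroblasts.

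The targeted gene was checked first. Chrna2 (ENSMUSG00000022041), which lies on chromosome 14 (GRCm38, 66135039 to 66152948), had 0.36, 0.03 and 0.32 FPKM in Chrna2fl/fl;AlbCre livers, against 1.24, 1.20 and 2.64 FPKM in Chrna2fl/fl livers, and the row for Cre itself held 3.31, 2.76 and 4.34 FPKM in Chrna2fl/fl;AlbCre livers, against 0 in each Chrna2fl/fl liver. FPKM values are fragment counts scaled to transcript length and library size, so that levels can be set side by side between genes. Hepatocyte markers summed to 63200 to 78315 FPKM in Chrna2fl/fl;AlbCre livers and to 57264 to 86819 FPKM in Chrna2fl/fl livers, with none of the 10 listed at 0. Of these markers, 2 of 10 had positive log2 fold changes (Chrna2fl/fl;AlbCre over Chrna2fl/fl), where 70.3% of all tested genes did. Their median log2 fold change was -0.075, beside 0.19 over all tested genes. The depth estimated from the steps between low FPKM values was 9.12 to 9.40 M fragments in Chrna2fl/fl;AlbCre libraries and 17.4 to 18 M in Chrna2fl/fl libraries, and because these ranges did not overlap, a sequencing batch and the genotype cannot be told apart.

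The sequences just before the start sites of Tgfb1, Tgfb2 and Tgfbi are shown because these members stood at the ends of the level range or had the smallest p-values among the 9 genes. They are RefSeq sequences of GRCm38.p6, 5′ to 3′ on the strand of the gene, and end at the base before transcription begins. Capitals mark CAGAC or its reverse complement GTCTG (the SMAD box) and GGGCGG or its reverse complement CCGCCC (the GC box). They also mark TATAAA or its reverse complement TTTATA (the TATA box).
Tgfb1 promoter, chr7:25686752-25687001, plus strand: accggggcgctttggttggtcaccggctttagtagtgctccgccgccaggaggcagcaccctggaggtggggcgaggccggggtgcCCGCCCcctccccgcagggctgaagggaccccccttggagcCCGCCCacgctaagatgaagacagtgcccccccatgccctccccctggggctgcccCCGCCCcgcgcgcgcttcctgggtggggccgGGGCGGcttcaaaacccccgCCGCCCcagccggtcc
Tgfb2 promoter, chr1:186705990-186706239, minus strand: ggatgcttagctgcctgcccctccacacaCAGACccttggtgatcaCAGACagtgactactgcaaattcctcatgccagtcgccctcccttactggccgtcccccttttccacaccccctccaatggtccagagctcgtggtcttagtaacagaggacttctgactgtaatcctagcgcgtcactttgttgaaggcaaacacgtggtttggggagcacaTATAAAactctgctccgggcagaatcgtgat
Tgfbi promoter, chr13:56609336-56609522, plus strand: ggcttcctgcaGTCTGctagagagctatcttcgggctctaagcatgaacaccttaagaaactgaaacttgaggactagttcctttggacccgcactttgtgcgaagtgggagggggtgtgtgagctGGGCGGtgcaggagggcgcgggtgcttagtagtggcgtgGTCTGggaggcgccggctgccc
The Tgfb1 window was 75.2% GC with 21 CpG sites and 5 GC boxes, and it held no SMAD box. The Tgfb2 window was 53.6% GC and held 2 SMAD boxes, at -221 and -204 from the start, and a TATA box at -31. For Tgfbi, the whole window of 250 bases before the RefSeq start held SMAD boxes at -239 and -85 and 1 GC box, and the printed part stops at the first base that the gene annotation gives to the transcript. Across all 9 windows found for 7 members, 7 held a SMAD box, 4 a GC box and 1 a TATA box, and none held the palindrome GTCTAGAC or the AP-1 element TGACTCA. Of 32851 mouse windows of the same length, 42.2% held a SMAD box, 32.7% a GC box and 12.4% a TATA box. The AP-1 element was in 4.46% and the palindrome in 0.167%, and all motifs were searched on both strands. These matches describe letters in the windows and are not binding sites.

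As a group, the 9 genes had higher mean levels in Chrna2fl/fl;AlbCre livers, with a median log2 fold change of 0.63 beside 0.19 over all 13943 genes tested, and none passed the test after adjustment. The median of the members was 0.27 beside 0.15 over all genes both without Chrna2fl/fl liver c and with a pseudocount of 1. No member was called higher or lower at an adjusted p under 0.05 from limma with Benjamini-Hochberg adjustment, where the share called among all genes was 0% in each direction. The study used an unadjusted p under 0.05 as its cutoff, though not with limma. At that cutoff with limma, 2 of 9 members (Tgfb1 and Tgfbi) were higher, where 13.2% of all genes were. Lower were 0, where 3.02% of all genes were. With unmoderated tests on log2 values, 0 members were higher, where 10.2% of all genes were. All 9 fold changes were positive, as were 70.3% of those of all genes. The plot of FPKM by liver shows the values of each member, and fold changes below are on the scale of log2(FPKM + 0.1).

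**Figure D1:**
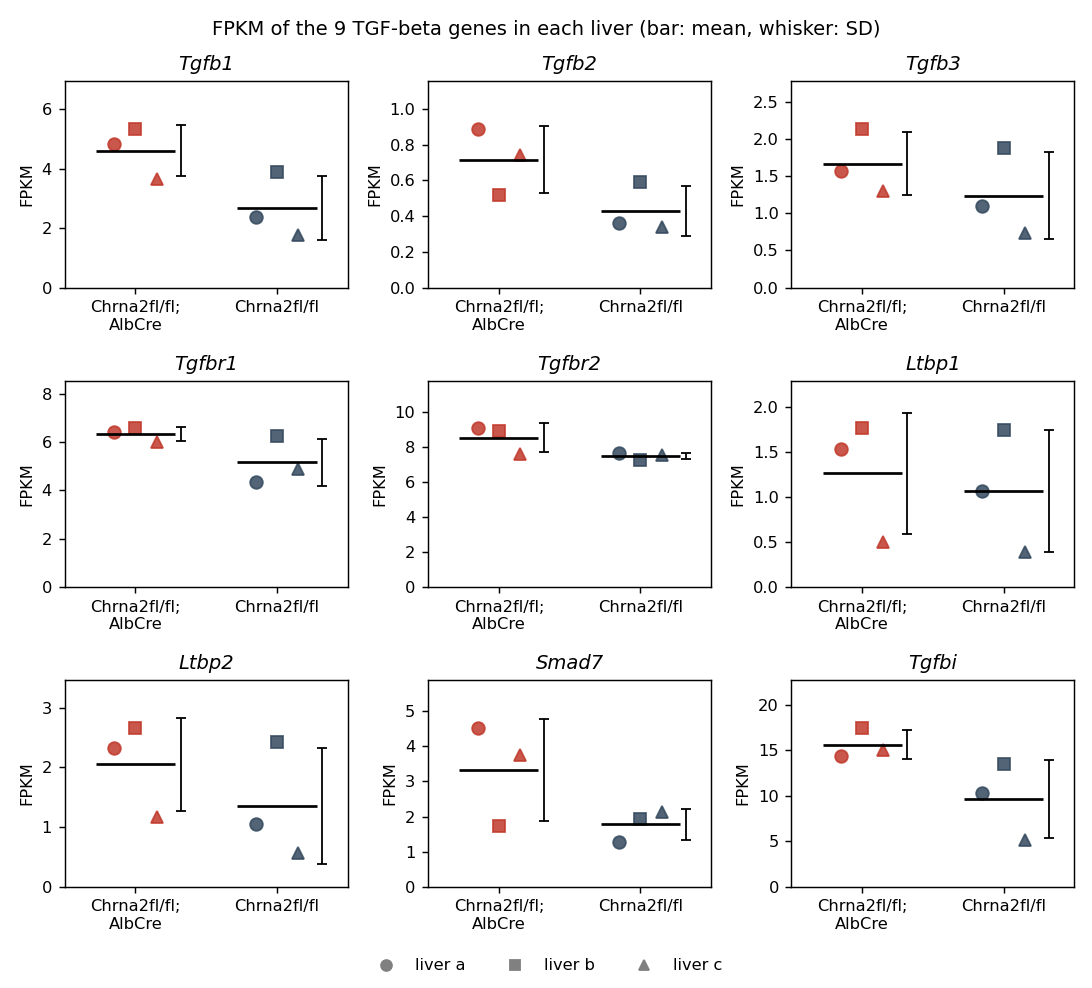
FPKM of the 9 genes in each liver, with 3 Chrna2fl/fl;AlbCre livers on the left and 3 Chrna2fl/fl livers on the right of each panel; points are livers a, b and c, bars are means and whiskers are SD. Tgfbi is the member in which all Chrna2fl/fl;AlbCre livers (14.42 to 17.47 FPKM) lie above all Chrna2fl/fl livers (5.12 to 13.54 FPKM).

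Among the ligands, Tgfb1 was the most abundant and had the largest fold change of the 9 genes. Tgfb1 (ENSMUSG00000002603, chromosome 7 from 25687002 to 25705077) encodes the isoform best known in fibrosis, which macrophages, platelets, endothelium and stellate cells produce. It was at 4.83, 5.35 and 3.66 FPKM in Chrna2fl/fl;AlbCre livers a, b and c, against 2.38, 3.88 and 1.77 FPKM in Chrna2fl/fl livers a, b and c. The lowest Chrna2fl/fl;AlbCre liver, c, lay just under the highest Chrna2fl/fl liver, b, and all other pairs of livers of different genotype were ordered with Chrna2fl/fl;AlbCre above. The means were 4.61 ± 0.866 and 2.68 ± 1.09 FPKM (SD, n = 3 each), a log2 fold change of 0.82 with a standard error (SE) of 0.31 and a 95% interval of 0.096 to 1.54. Its adjusted p from limma was 0.285 and its unadjusted p from limma was 0.0315.

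Tgfb2 (ENSMUSG00000039239, chromosome 1 from 186622792 to 186705989) encodes a ligand that binds the type II receptor poorly without the co-receptor betaglycan. It was the least abundant member, with 0.89, 0.52 and 0.74 FPKM in Chrna2fl/fl;AlbCre livers a, b and c, against 0.36, 0.59 and 0.34 FPKM in Chrna2fl/fl livers a, b and c. The groups overlapped through 1 pair, in which Chrna2fl/fl;AlbCre liver b lay under Chrna2fl/fl liver b. At the estimated depth these levels stand for about 24 to 53 fragments per liver, a range that starts and ends lower than that of any other member. The means of 0.717 ± 0.186 and 0.430 ± 0.139 FPKM gave a log2 fold change of 0.63 (SE 0.46, limma adjusted p = 0.498).

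Tgfb3 (ENSMUSG00000021253, chromosome 12 from 86056745 to 86079041) encodes the third ligand, which myofibroblasts and other mesenchymal cells express. It was at 1.57, 2.14 and 1.3 FPKM in Chrna2fl/fl;AlbCre livers a, b and c, against 1.10, 1.88 and 0.74 FPKM in Chrna2fl/fl livers a, b and c. Liver b was the highest of each genotype and liver c the lowest, and the ranges overlapped over most of their width. The means of 1.67 ± 0.429 and 1.24 ± 0.583 FPKM gave a log2 fold change of 0.46 (SE 0.39, limma adjusted p = 0.543). For Tgfb3 it was 0.17 without Chrna2fl/fl liver c and 0.79 without Chrna2fl/fl liver b.

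The makeup of the ligand pool varied less between livers than its total. Tgfb1 supplied 66.3%, 66.8% and 64.2% of the summed FPKM of the 3 ligands in Chrna2fl/fl;AlbCre livers, against 62.0%, 61.1% and 62.1% in Chrna2fl/fl livers. Every Chrna2fl/fl;AlbCre liver lay above every Chrna2fl/fl liver. The means of 65.8% ± 1.36 and 61.7% ± 0.546 differed by 4.02 percentage points. The two-sided exact permutation p was 0.1, which no 3 livers against 3 can go below. It was 0.3 after adjustment over the 3 planned ratios. The share of Tgfb3 was 21.5%, 26.7% and 22.8% in Chrna2fl/fl;AlbCre livers, against 28.6%, 29.6% and 26.0% in Chrna2fl/fl livers, where 1 pair of livers overlapped. Tgfb2 supplied 6.49% to 13% of the pool in Chrna2fl/fl;AlbCre livers and 9.29% to 11.9% in Chrna2fl/fl livers, a range of the first genotype that spans that of the other. The summed pool was 7.29, 8.01 and 5.70 FPKM in Chrna2fl/fl;AlbCre livers, against 3.84, 6.35 and 2.85 FPKM in Chrna2fl/fl livers, with Chrna2fl/fl liver b above the lowest Chrna2fl/fl;AlbCre liver.

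**Figure D2:**
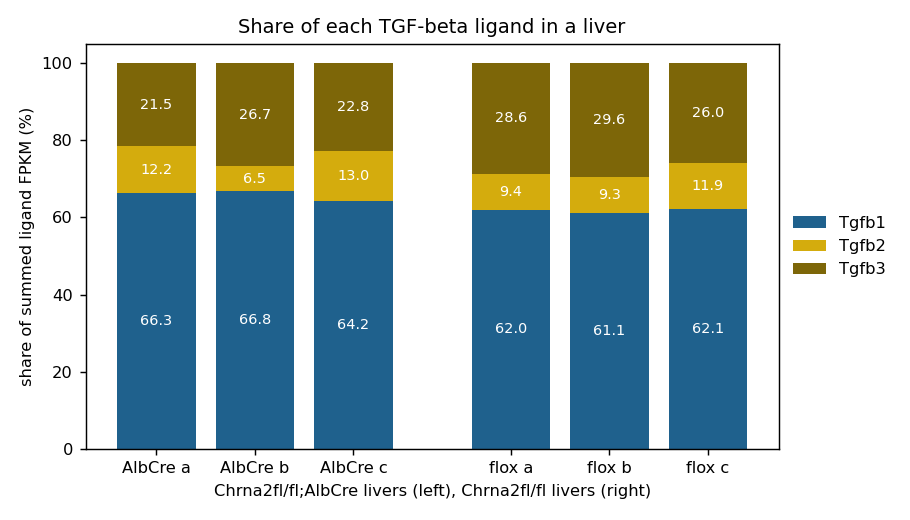
Share of Tgfb1, Tgfb2 and Tgfb3 in their summed FPKM (percent, stacked to the whole) in each liver, with the 3 Chrna2fl/fl;AlbCre livers (AlbCre a to c) left of the 3 Chrna2fl/fl livers (flox a to c). Tgfb1 takes 64.2% to 66.8% of the pool in Chrna2fl/fl;AlbCre livers and 61.1% to 62.1% in Chrna2fl/fl livers.

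The receptors were the steadiest members. Tgfbr1 (ENSMUSG00000007613, chromosome 4 from 47353222 to 47414931) encodes the type I receptor ALK5, the kinase that phosphorylates SMAD2 and SMAD3. It was at 6.42, 6.57 and 5.99 FPKM in Chrna2fl/fl;AlbCre livers a, b and c, against 4.37, 6.24 and 4.88 FPKM in Chrna2fl/fl livers a, b and c. The Chrna2fl/fl;AlbCre livers lay close together, and Chrna2fl/fl liver b fell among them while the other Chrna2fl/fl livers lay below. The means were 6.33 ± 0.301 and 5.16 ± 0.967 FPKM, a log2 fold change of 0.30 (SE 0.18, limma adjusted p = 0.411), which was 0.19 without Chrna2fl/fl liver a.

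Tgfbr2 (ENSMUSG00000032440, chromosome 9 from 116084293 to 116175360) encodes the type II receptor that binds the ligand first. It was at 9.06, 8.93 and 7.58 FPKM in Chrna2fl/fl;AlbCre livers a, b and c, against 7.63, 7.27 and 7.52 FPKM in Chrna2fl/fl livers a, b and c. Its highest and lowest livers differed by 1.25-fold, the narrowest span of the 9 genes, and Chrna2fl/fl;AlbCre liver c lay within the Chrna2fl/fl range. The means of 8.52 ± 0.820 and 7.47 ± 0.184 FPKM gave a log2 fold change of 0.18 (SE 0.14, limma adjusted p = 0.518), about the median of all genes, and it was -0.01 after median-ratio scaling of the libraries. Tgfbr2 exceeded Tgfbr1 in every liver, and the log2 ratio of Tgfbr2 to Tgfbr1 was 0.50, 0.44 and 0.34 in Chrna2fl/fl;AlbCre livers, against 0.80, 0.22 and 0.62 in Chrna2fl/fl livers. The ratios of the genotypes overlapped and their means differed by -0.12 (exact permutation test, two-sided p = 0.5, and 0.5 after adjustment over 3 ratios), a difference of 0.0043 without Chrna2fl/fl liver a.

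The binding proteins varied most from liver to liver. Ltbp1 (ENSMUSG00000001870, chromosome 17 from 75005568 to 75392512) encodes a matrix protein that is disulfide-linked to the latent complex and anchors it. It was at 1.53, 1.76 and 0.50 FPKM in Chrna2fl/fl;AlbCre livers a, b and c, against 1.07, 1.74 and 0.39 FPKM in Chrna2fl/fl livers a, b and c. The 2 groups covered nearly the same range, with liver b highest and liver c lowest in each genotype. The means were 1.26 ± 0.671 and 1.07 ± 0.675 FPKM and the log2 fold change was 0.26 (SE 0.63, 95% interval -1.22 to 1.74, adjusted p = 0.838 from limma). It was -0.08 after quantile normalization, -0.04 without Chrna2fl/fl;AlbCre liver b, -0.27 without Chrna2fl/fl liver c and 0.77 without Chrna2fl/fl;AlbCre liver c.

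Ltbp2 (ENSMUSG00000002020, chromosome 12 from 84783212 to 84876532) belongs to the same family but its protein does not bind latent TGF-beta and associates with microfibrils. It was at 2.32, 2.66 and 1.17 FPKM in Chrna2fl/fl;AlbCre livers a, b and c, against 1.05, 2.43 and 0.56 FPKM in Chrna2fl/fl livers a, b and c. Again liver b was highest and liver c lowest in each genotype, and the highest liver of all exceeded the lowest by 4.75-fold, the widest span of the 9 genes. The means of 2.05 ± 0.781 and 1.35 ± 0.970 FPKM gave a log2 fold change of 0.71 (SE 0.54, limma adjusted p = 0.509). For Ltbp2 it was 0.26 without Chrna2fl/fl liver c and 1.23 without Chrna2fl/fl liver b. Relative to the summed ligands, Ltbp1 had a log2 ratio of -2.25, -2.19 and -3.51 in Chrna2fl/fl;AlbCre livers, against -1.84, -1.87 and -2.87 in Chrna2fl/fl livers. This ratio overlapped between genotypes and differed by -0.46 in the mean (exact permutation test, two-sided p = 0.5, and 0.5 after adjustment over 3 ratios).

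Of the target genes, the inhibitory one was read first. Smad7 (ENSMUSG00000025880, chromosome 18 from 75367529 to 75395935) encodes the inhibitory SMAD that TGF-beta induces early and that recruits ubiquitin ligases to the type I receptor. It was at 4.52, 1.72 and 3.74 FPKM in Chrna2fl/fl;AlbCre livers a, b and c, against 1.28, 1.94 and 2.12 FPKM in Chrna2fl/fl livers a, b and c. Chrna2fl/fl;AlbCre livers a and c stood above all Chrna2fl/fl livers, while Chrna2fl/fl;AlbCre liver b, which was the highest or second highest liver for most other members, fell within the Chrna2fl/fl range. The means of 3.33 ± 1.45 and 1.78 ± 0.442 FPKM gave a log2 fold change of 0.79 (SE 0.39, limma adjusted p = 0.348). Without Chrna2fl/fl;AlbCre liver b the log2 fold change was 1.19, with an adjusted p of 0.487 from limma, and without Chrna2fl/fl;AlbCre liver a it was 0.52.

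Tgfbi (ENSMUSG00000035493, chromosome 13 from 56609523 to 56639562) encodes a secreted matrix protein named for its induction by TGF-beta, and it was the most abundant member. It was at 14.42, 17.47 and 15.03 FPKM in Chrna2fl/fl;AlbCre livers a, b and c, against 10.28, 13.54 and 5.12 FPKM in Chrna2fl/fl livers a, b and c. All Chrna2fl/fl;AlbCre livers lay above all Chrna2fl/fl livers, as they did for 1 of 9 members and for 18.7% of all genes, and 0 members had them all below, as 4.34% of all genes did. The means were 15.6 ± 1.61 and 9.65 ± 4.25 FPKM, a log2 fold change of 0.79 with an SE of 0.33 and a 95% interval of 0.0091 to 1.58. Its adjusted p from limma was 0.305 and its unadjusted p from limma was 0.0480. Chrna2fl/fl liver c was the lowest of all, and without it the log2 fold change of Tgfbi was 0.40.

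**Figure D3:**
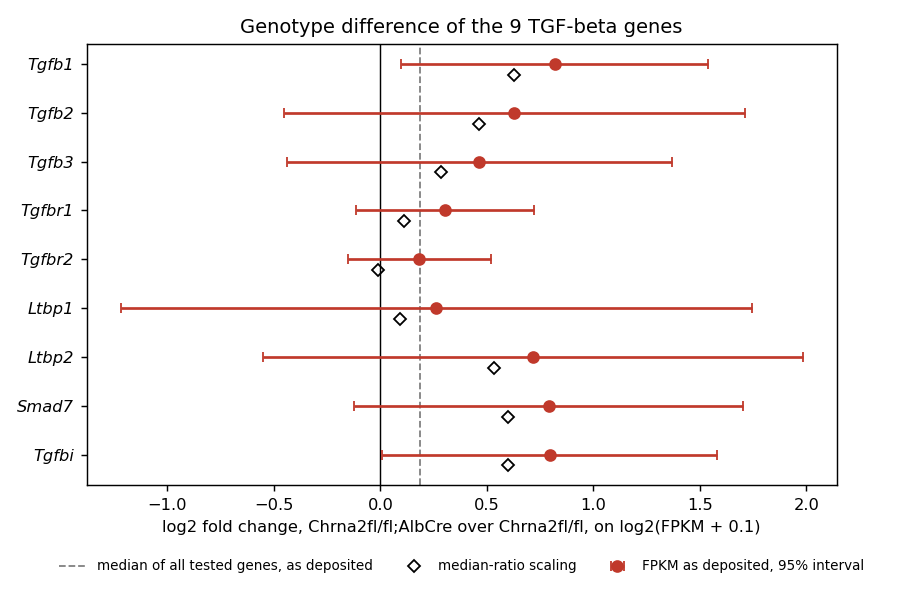
Log2 fold change of each member, Chrna2fl/fl;AlbCre over Chrna2fl/fl, on the log2(FPKM + 0.1) scale, with 95% intervals from limma (red), the value after median-ratio scaling (open diamonds) and a dashed line at the median of all tested genes (0.19). The intervals of Tgfb1 (0.096 to 1.54) and Tgfbi (0.0091 to 1.58) lie above 0, that of Ltbp1 (-1.22 to 1.74) is the widest, and Tgfbr2 lies at -0.01 after median-ratio scaling.

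Which members passed an unadjusted p under 0.05 depended on single livers and on the scaling. The count of 2 became 4 without Chrna2fl/fl liver b (Tgfb1, Tgfbi, Tgfbr1 and Ltbp2), where 20.7% of all genes were higher. It was 1 without Chrna2fl/fl;AlbCre liver b (Smad7) and 1 without Chrna2fl/fl;AlbCre liver c (Tgfb1), where 8% and 9.57% of all genes were. It was 0 without Chrna2fl/fl;AlbCre liver a, Chrna2fl/fl liver a or Chrna2fl/fl liver c, where 9.16%, 8.30% and 7.45% were. After median-ratio scaling or quantile normalization, which bring the median log2 fold change of all genes to -0.01 and -0.0043, the count was 0. Of all genes, 6.08% and 6.85% were then higher. Fold changes stayed positive for 8 of 9 members, with a median of 0.46 and 0.33, where 49.0% and 49.3% of all genes were positive.

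In both genotypes the members stood in the same order of mean FPKM, from Tgfbi through Tgfbr2, Tgfbr1, Tgfb1, Smad7, Ltbp2, Tgfb3 and Ltbp1 to Tgfb2. Over all 6 livers the means were 12.6 FPKM for Tgfbi, 8.0 for Tgfbr2, 5.75 for Tgfbr1, 3.65 for Tgfb1, 2.55 for Smad7, 1.7 for Ltbp2, 1.46 for Tgfb3, 1.17 for Ltbp1 and 0.573 for Tgfb2. Only Tgfbr2 and Tgfbr1 had ranges that did not overlap among neighbours in this order. The step between Ltbp2 and Tgfb3 was the least settled, since Ltbp2 exceeded Tgfb3 in 3 of 6 livers. Messages for both receptors were thus at higher levels than those of any ligand in the means of both genotypes, with Tgfb1 as the nearest ligand.

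The livers also differed from each other in ways that ran across members. Chrna2fl/fl liver c was the lowest of all livers for 6 of 9 members, Chrna2fl/fl;AlbCre liver b the highest for 6 and Chrna2fl/fl;AlbCre liver a the highest for 3. Within Chrna2fl/fl mice, liver b was the highest for 7 members. Some summed marker lists of nonparenchymal cells placed the livers in a similar order. The 12 stellate cell markers, all listed above 0, summed to 258, 304 and 183 FPKM in Chrna2fl/fl;AlbCre livers a, b and c, against 176, 249 and 88.2 FPKM in Chrna2fl/fl livers a, b and c. Tgfb1 placed the 6 livers in exactly that order, matching 15 of 15 pairs of livers, Tgfb3, Tgfbr1 and Ltbp2 matched 14, Ltbp1 and Tgfbi 13, Tgfb2 11, Tgfbr2 10 and Smad7 8. That is 6 of 9 members at 13 pairs or more, where 13.8% of all tested genes reached 13.

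**Figure D4:**
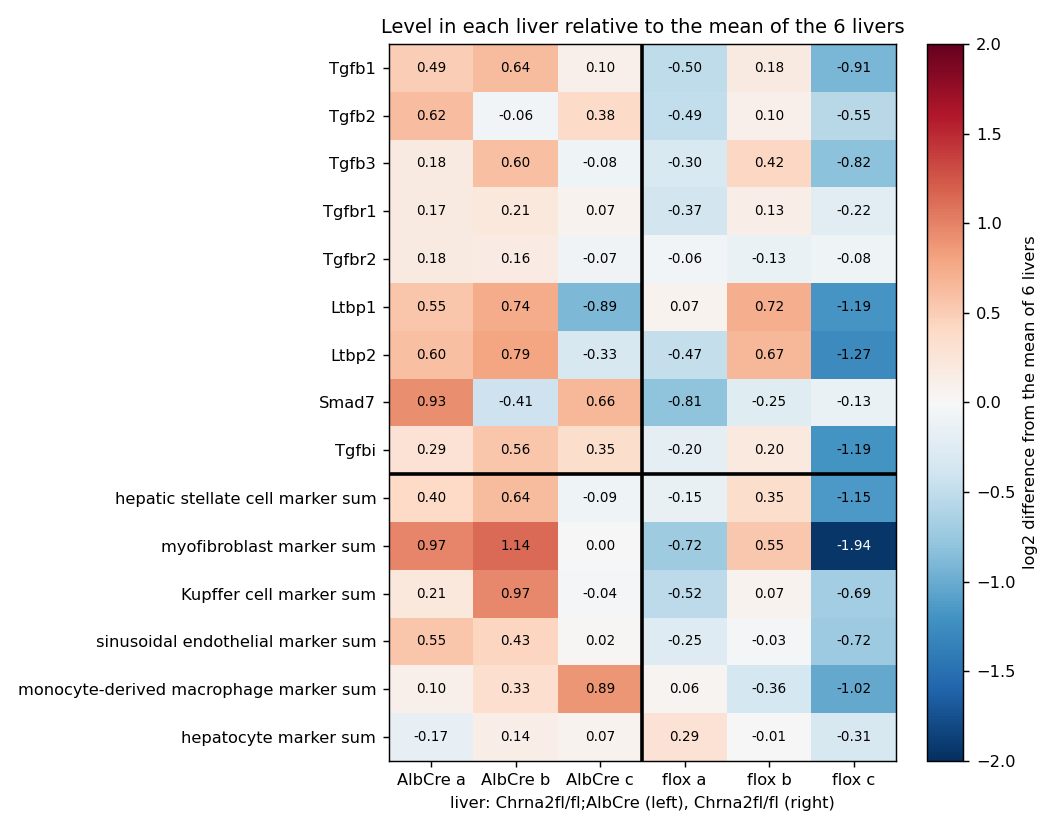
Log2 difference from the mean of the 6 livers (color and printed values) for the members and, under the line, for summed markers of 6 cell types (rows) in each liver (columns, Chrna2fl/fl;AlbCre as AlbCre a to c, left of Chrna2fl/fl as flox a to c). Chrna2fl/fl liver c is the lowest liver for 6 of 9 members, and Smad7 and Tgfb2 are the members in which Chrna2fl/fl;AlbCre liver b lies under the mean.

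The same order of livers was found for summed myofibroblast, Kupffer cell and B cell and plasma cell markers, although only 2 of 6 on the last list were tested. Other lists placed the livers differently. Monocyte-derived macrophage markers were highest in Chrna2fl/fl;AlbCre liver c, where Spp1 alone was at 423 FPKM. T cell markers, with 1 of 8 tested and sums of 1.51 to 4.35 FPKM in Chrna2fl/fl livers, were highest in Chrna2fl/fl liver b. Of 9 members, 1 and 0 matched those orders in 13 pairs or more, where 10.6% and 2.48% of all tested genes did. For platelet and megakaryocyte markers it was 5 of 9, where 16.2% of all tested genes did. Sinusoidal endothelial markers had 3 of 9 (15.8% of all tested genes), portal fibroblast markers 2 (8.73%) and mesothelial markers 2 (5.20%). Cholangiocyte markers had 1 of 9 (5.64%) and hepatocyte markers 0 (1.87%). Myofibroblast markers summed to 145 to 320 FPKM in Chrna2fl/fl;AlbCre livers and 37.9 to 212 FPKM in Chrna2fl/fl livers, with 11 of 11 tested markers positive (70.3% of all genes) and 7 higher with an unadjusted limma p under 0.05 (13.2% of all genes). Kupffer cell markers summed to 192 to 388 FPKM in Chrna2fl/fl;AlbCre livers and 123 to 208 FPKM in Chrna2fl/fl livers, with 7 of 7 positive and 3 higher at that threshold. These sums overlapped between genotypes. All Chrna2fl/fl;AlbCre livers lay above all Chrna2fl/fl livers for 5 of the 11 myofibroblast markers and 1 of 7 Kupffer cell markers (Marco). Of all genes, 18.7% had them all above. Summed markers of monocyte-derived macrophages did not overlap, at 401 to 693 FPKM in Chrna2fl/fl;AlbCre livers and 185 to 389 FPKM in Chrna2fl/fl livers. Of these sums, Spp1 alone made up 162 to 423 FPKM and 73.2 to 198 FPKM, ranges that overlap. Summed sinusoidal endothelial markers did not overlap either, at 94.3 to 136 FPKM in Chrna2fl/fl;AlbCre livers and 56.3 to 90.7 FPKM in Chrna2fl/fl livers. On each list, 4 of 10 single markers lay above without overlap, as 18.7% of all genes did. None of the markers on these lists was listed at 0 in all livers. In bulk RNA, more cells of a type and more RNA per cell cannot be told apart, and the part of these marker differences in the values of the 9 genes was not tested.

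The other genes of the pathway were counted on lists by role, with no gene of any list past an adjusted p under 0.05 from limma. Of 12 other ligands of the superfamily above the filter, 10 had positive fold changes, as had 70.3% of all genes. At an unadjusted p under 0.05, where 13.2% of all genes were higher, 1 of these ligands was. This was Inhba, which encodes the subunit of activin A, at 7.33, 7.81 and 10.37 FPKM in Chrna2fl/fl;AlbCre livers, against 6.08, 5.04 and 3.39 FPKM in Chrna2fl/fl livers, a log2 fold change of 0.82 without overlap (adjusted p = 0.256 from limma). The most abundant ligand genes were Bmp1, a procollagen protease grouped here by name, at a log2 fold change of -0.15, and the hepatocyte activin genes Inhbc at 0.07 and Inhbe at 0.16. Both activin genes turned negative after median-ratio scaling and after quantile normalization.

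Other receptors and co-receptors were all positive, 9 of 9, beside 70.3% of all genes. Their median log2 fold change of 0.24 lay near the 0.19 of all genes. Acvr1, the type I receptor ALK2, was the 1 of 9 at an unadjusted p under 0.05, where 13.2% of all genes were higher. It had 9.36, 8.35 and 10.35 FPKM in Chrna2fl/fl;AlbCre livers, against 7.21, 5.73 and 6.64 FPKM in Chrna2fl/fl livers (log2 fold change 0.51, adjusted p = 0.258 from limma). Tgfbr3, the co-receptor betaglycan on which Tgfb2 signalling relies, was at 2.35, 2.12 and 1.32 FPKM in Chrna2fl/fl;AlbCre livers, against 1.06, 1.59 and 0.74 FPKM in Chrna2fl/fl livers, with an overlap through Chrna2fl/fl liver b. The SMAD transducers, which carry the signal to the nucleus, had a median of 0.19, that of all genes. Smad3 had a log2 fold change of 0.28 and Smad2 of 0.39, while Smad4, the common partner, had -0.20. Past an unadjusted p under 0.05 were 0 of 6, beside 13.2% of all genes higher and 3.02% lower.

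Genes for latency and activation had 12 of 13 positive fold changes, beside 70.3% of all genes, and a median of 0.52. Ltbp4, a binding protein of the same family that carries latent Tgfb1, was at 6.86, 9.11 and 8.37 FPKM in Chrna2fl/fl;AlbCre livers, against 6.36, 5.62 and 3.53 FPKM in Chrna2fl/fl livers, a log2 fold change of 0.67 without overlap (adjusted p = 0.284 from limma). Thbs1, thrombospondin 1, which can release active ligand, had a log2 fold change of 1.41 (adjusted p = 0.287 from limma) with an overlap through Chrna2fl/fl liver b. Plg, the hepatocyte gene for plasminogen, was the 1 of 13 with all Chrna2fl/fl;AlbCre livers below, as 4.34% of all genes had them. It was at 857 to 1004 FPKM against 1055 to 1177 FPKM in Chrna2fl/fl livers. Of 8 extracellular antagonists, 0 were past an unadjusted p under 0.05, beside 13.2% of all genes higher and 3.02% lower. The abundant proteoglycan genes Dcn and Bgn had log2 fold changes of 0.64 and 0.62 with overlap.

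Among 12 intracellular inhibitors and corepressors, which include the feedback genes, 10 were positive, beside 70.3% of all genes. Their median was 0.16, slightly under that of all genes. Bambi, a receptor without a kinase domain that blocks signalling, was at 1.29, 1.46 and 1.11 FPKM in Chrna2fl/fl;AlbCre livers, against 0.63, 0.83 and 0.62 FPKM in Chrna2fl/fl livers, a log2 fold change of 0.81 without overlap (adjusted p = 0.289 from limma). The other feedback genes Skil (0.43), Pmepa1 (0.75) and Smad6 (0.34) had positive log2 fold changes with overlap.

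Textbook target genes of TGF-beta had the highest median of the pathway lists, 0.86, with 15 of 18 positive, beside 70.3% of all genes, and 6 higher at an unadjusted p under 0.05, beside 13.2% of all genes. Of the 18, 8 are also on the myofibroblast list, and these held 5 of the 6. The largest value was that of Acta2, smooth muscle actin of myofibroblasts, at 30.16, 38.60 and 11.28 FPKM in Chrna2fl/fl;AlbCre livers, against 2.11, 8.38 and 0.65 FPKM in Chrna2fl/fl livers, a log2 fold change of 3.30 (adjusted p = 0.255 from limma). The 10 targets outside the myofibroblast list, some of which are also on the list of inhibitors, had a median of 0.31. Of these, 7 were positive, close to the 70.3% of all genes. Ccn2, another early target, was at 1.17, 4.53 and 2.0 FPKM in Chrna2fl/fl;AlbCre livers, against 1.73, 2.65 and 0.40 FPKM in Chrna2fl/fl livers, and the groups overlapped.

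**Figure D5:**
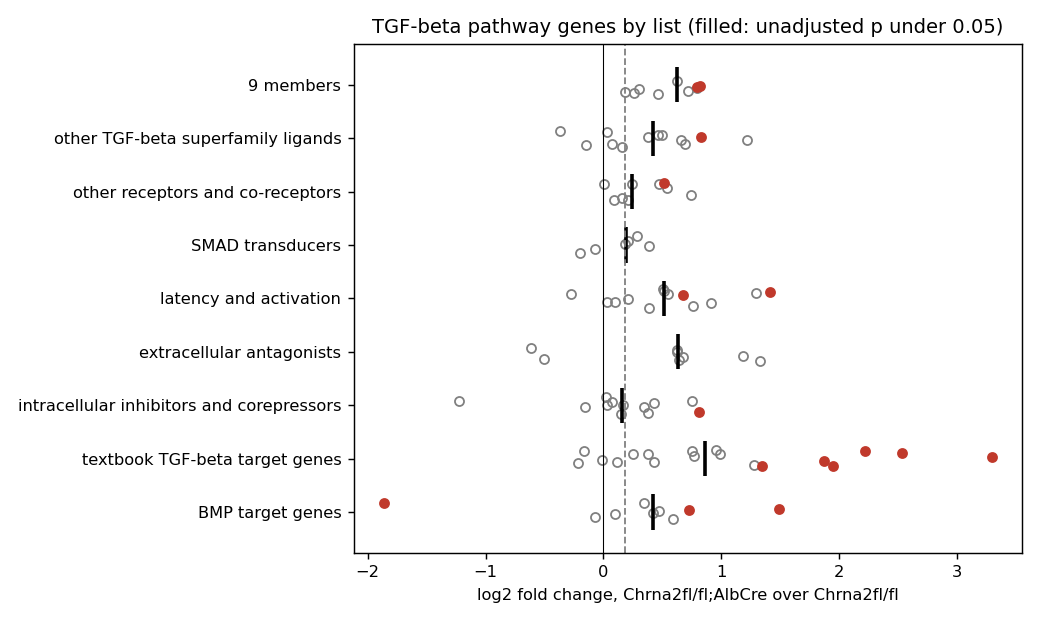
Log2 fold changes, Chrna2fl/fl;AlbCre over Chrna2fl/fl, of every tested gene (points, filled where the unadjusted p was under 0.05) on each pathway list, with the median of each list (bars) and a dashed line at the median of all tested genes (0.19). The list of textbook targets has the highest median (0.86) and reaches 3.30 at Acta2, and the lowest point is Hamp2 among the BMP targets (-1.86).

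Bone morphogenetic protein (BMP) signalling is the sister branch through SMAD1 and SMAD5. Of its 9 listed target genes, 7 had positive fold changes, beside 70.3% of all genes. When an unadjusted p under 0.05 was asked for, 2 of 9 were higher, where 13.2% of all genes were. Only Hamp2 was lower, where 3.02% of all genes were. The other negative log2 fold change was that of Smad9, at -0.07. Id1, a classical BMP target, was at 41.61, 27.09 and 65.62 FPKM in Chrna2fl/fl;AlbCre livers, against 14.71, 24.39 and 9.17 FPKM in Chrna2fl/fl livers (log2 fold change 1.49, adjusted p = 0.255 from limma). Hamp2, a hepcidin gene, was at 38.52, 18.90 and 18.89 FPKM in Chrna2fl/fl;AlbCre livers, against 89.99, 71.61 and 102.86 FPKM in Chrna2fl/fl livers (log2 fold change -1.86, adjusted p = 0.243 from limma). The groups of both genes did not overlap, in opposite directions. Hamp, the main hepcidin gene, had 945 to 1111 FPKM in Chrna2fl/fl;AlbCre livers and 469 to 1007 FPKM in Chrna2fl/fl livers. The 2 hepcidin genes are close copies, and whether reads were split between them was not tested. Whether Hamp2 answers to BMP signalling in these livers was not tested either.

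The genes whose levels followed the members most closely over the 6 livers were found by the root mean square difference of centred log2 values, a measure that is 0 for identical profiles. For Tgfb1 the closest was Pip4k2a (0.063), where Tgfb1 itself varied by 0.54 around its mean. Crebbp (0.063) was closest to Tgfb3, Tmx1 (0.035) to Tgfbr1, Vars2 (0.038) to Tgfbr2 and Cyp20a1 (0.051) to Tgfbi. For Ltbp1 they were Mrc2 (0.088), a collagen receptor of mesenchymal cells, Naalad2 (0.12) and Loxl1 (0.16), an enzyme that cross-links elastin. Smad7 had the most distant closest gene, the pseudogene Gm7599 at 0.14. With 6 points and 13943 candidates, these distances describe the livers and support no relation between the genes.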

How the data were processed

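Livers of 6 mice were profiled as poly(A) RNA in directional libraries with paired reads of 151 nt. Per the submitters' processing notes, reads were trimmed and checked with cutadapt 2.3, FastQC 0.11.8 and MultiQC 1.7 and aligned with STAR v2.7.8a (build GRCm38), and RSEM v1.3.3 gave the gene FPKM values that the authors deposited, rounded to 2 decimals. No counts were used, and no scaling between libraries beyond FPKM was stated. Depth was estimated from steps between low values, 86.3% to 89.0% of which were whole fragments within a tolerance of 0.15, and fragments per member from the longest coding transcript.

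Genes whose mean reached 0.5 FPKM were compared as log2(FPKM + 0.1) by lmFit and trended eBayes of limma 3.58.1 (R 4.3.3), with Benjamini-Hochberg adjustment over 13943 genes and a threshold of 0.05. This fit was tested on simulated data. Ratios were compared by exact permutation of the livers. Their adjustment covered the 3 planned ratios and not the other shares and ratios computed beside them. Named pathway genes were taken, per list, from the 3 with the highest mean, the 2 with the smallest p and those fixed by name. Not all genes that this rule selects are given. The members and all lists were chosen with earlier results of these data known. Of the target list, the symbol Ctgf had no match, while Ccn2 did, and the result of 1 gene of that list is not reported here. Alternatives were other pseudocounts, filters, scalings and limma settings, each liver left out, and the letter as a block. P-values set the difference between genotypes against the spread of mice within a genotype, which limma draws toward that of other genes.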

Additional observations from a re-analysis of the deposited data

How the results depend on the processing

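No member passed an adjusted p under 0.05 from limma under any alternative run, and the smallest was 0.0825, for Tgfb1 without Chrna2fl/fl liver b. The count of members higher at an unadjusted p under 0.05 was 2 (Tgfb1 and Tgfbi), where 13.2% of all genes were higher. It was 1 with no filter (8.55% of all genes), 1 with a minimum mean of 5 FPKM (14.9%) and 1 after rescaling to a common sum (13.3%). It was 0 after median-ratio scaling (6.08%), 0 after quantile normalization (6.85%) and 1 without the trend (12.1%). It was 4 with array weights (21.5%), 0 with unmoderated tests (10.2%) and 0 to 4 with 1 liver left out (7.45% to 20.7%). The count of positive fold changes was 3 with a minimum mean of 5 FPKM, since only 3 members were then tested. The count with every Chrna2fl/fl;AlbCre liver above every Chrna2fl/fl liver was 1, beside 18.7% of all genes. It was 0 after median-ratio scaling (8.98% of all genes) and 0 after quantile normalization (9.46%). With 1 liver left out it was 1 to 6 (22.5% to 36.4% of all genes), with 6 without Chrna2fl/fl liver b (36.4%). Of the genes at an unadjusted p under 0.05, 81.4% were higher as deposited, 43.8% after median-ratio scaling and 51.0% after quantile normalization. Log2 fold changes that turned negative after median-ratio scaling were those of Tgfbr2 (-0.012), Inhbc (-0.12), Inhbe (-0.040), Smad1 (-0.014), Furin (-0.17), Nedd4l (-0.050) and Fn1 (-0.085), and after quantile normalization those of Ltbp1 (-0.080), Inhbc (-0.064), Inhbe (-0.014), Smad1 (-0.030) and Furin (-0.11). With 1 liver left out, Ltbp1 ranged from -0.27 to 0.77, Inhbc from -0.078 to 0.18, Bmp1 from -0.29 to 0.035 and the log2 ratio of Tgfbr2 to Tgfbr1 from -0.29 to 0.0043. The cause of these turns was not tested beyond the construction of each alternative.

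Same-lettered livers had correlations of -0.019, 0.055 and 0.016 of their deviations, so the letters were not taken to pair the mice. With the letter as a replicate block, 2 members (Tgfb1 and Tgfbi) were higher at an unadjusted p under 0.05, where 12.2% of all genes were. Their log2 fold changes were 0.82 and 0.79, and the smallest adjusted p of a member from limma was 0.266. Depth limits the precision of the low members, and the fewest fragments stood behind Tgfb2, at about 24 to 53 fragments per liver.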
